A study of Mus musculus with 2 samples.

Results

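The genes of the mitochondrial respiratory chain and of the ATP synthase were compared between a wild-type and a double-knockout fetal mouse mandible. The members were chosen by a rule on gene symbols, set with earlier results of these data known: the Ndufa, Ndufb, Ndufc, Ndufs and Ndufv families of complex I without the Ndufaf assembly factors, Sdha to Sdhd, the Uqcr genes, the Cox4 to Cox8 genes and the Atp5 genes. Of the 19938 genes with a probe set of their own, 82 met this rule, with 107 probe sets between them. They comprised 36 genes of complex I, 4 of complex II, 8 of complex III, 17 of complex IV and 17 of the ATP synthase.

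Both samples were whole mandibles on the BALB/c background at E18.5, an embryonic age shortly before birth. One array was hybridised with RNA of a wild-type mandible and the other with RNA of a mandible null for both Myf5 and MyoD (gene Myod1), the transcription factors that commit cells to skeletal muscle. The labels name a null genotype and no conditional allele. They do not say how many embryos were pooled for an array. With 1 array per genotype there is no replicate check on any difference, and no test between the genotypes is possible.

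The respiratory chain passes electrons from NADH and succinate to oxygen through complexes I to IV of the inner mitochondrial membrane, and the proton gradient built on the way drives the ATP synthase. Nuclear genes encode most subunits, and the mitochondrial genome encodes a few. Skeletal muscle is rich in mitochondria, and in striated muscle some subunits of complex IV (cytochrome c oxidase) are made from a second gene: Cox6a2, Cox7a1 and Cox8b take the place of the ubiquitous Cox6a1, Cox7a2 and Cox8a.

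Values are the log2 signal of the probe set with the highest mean signal for each gene. Signals under a floor, each array's median over probe sets of 1 gene (6.20 for the wild type, 6.21 for the double knockout), were raised to that floor, and a gene was called measured when it was above the floor on at least 1 array. Each difference is the double knockout's value less the wild type's on this floored scale, and where 1 side was at the floor the difference is a lower bound, written as "at least". The median difference of the 10336 measured genes was 0.098. The 2 brightest probe sets of a gene gave differences whose gap had an SD of 0.225 over 528 genes, which describes the arrays and not the spread between animals. Myf5 read 6.31 in the wild type and was below the floor in the double knockout, with a deposited value of 4.95, and Myod1 read 7.14 and 6.49. Whether their probe sets lie in the deleted parts was not examined. The 12 skeletal muscle markers examined (sarcomere, calcium handling and creatine kinase genes, such as Acta1, Tnnt3 and Ckm) were all lower by 2-fold or more, and 11 of them were below the floor in the double knockout. The sum of their deposited linear signals, with no floor applied, was 35351 (wild type) and 455.5 (double knockout), the latter mostly from values below the floor, so no fold is drawn from it. In whole tissue, fewer muscle cells and less RNA per cell cannot be told apart.

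Most respiratory genes were modestly lower in the double knockout, and the muscle isoforms of complex IV were lower by far more. Of the 82 members, 78 were measured and 72 of these had a difference below 0 (75 with the median of all genes set to 0, and 74 after quantile normalisation), where 32.2% of all measured genes did. The median over the 78 was -0.31, or 1.24-fold lower, and its gap to the median of all genes was -0.41. At least 2-fold lower were 3 members (2.74% of all measured genes were), and 0 were at least 2-fold higher (0.513% of all measured genes). A share of 3.85% is close to the background, so the 2-fold count does not set the members apart. At 1.5-fold the count was 7 lower (5.11% of all genes) and 0 higher (3.06% of all genes). At 1.2-fold, a threshold added after the data were seen, 47 members (60.3%) were lower and 1 higher, where 11.3% of all genes were lower and 21.3% higher. Most of the lower members therefore lay between 1.2-fold and 1.5-fold, a range in which a single gene's difference is not far from the gap between probe sets.

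**Figure D1:**
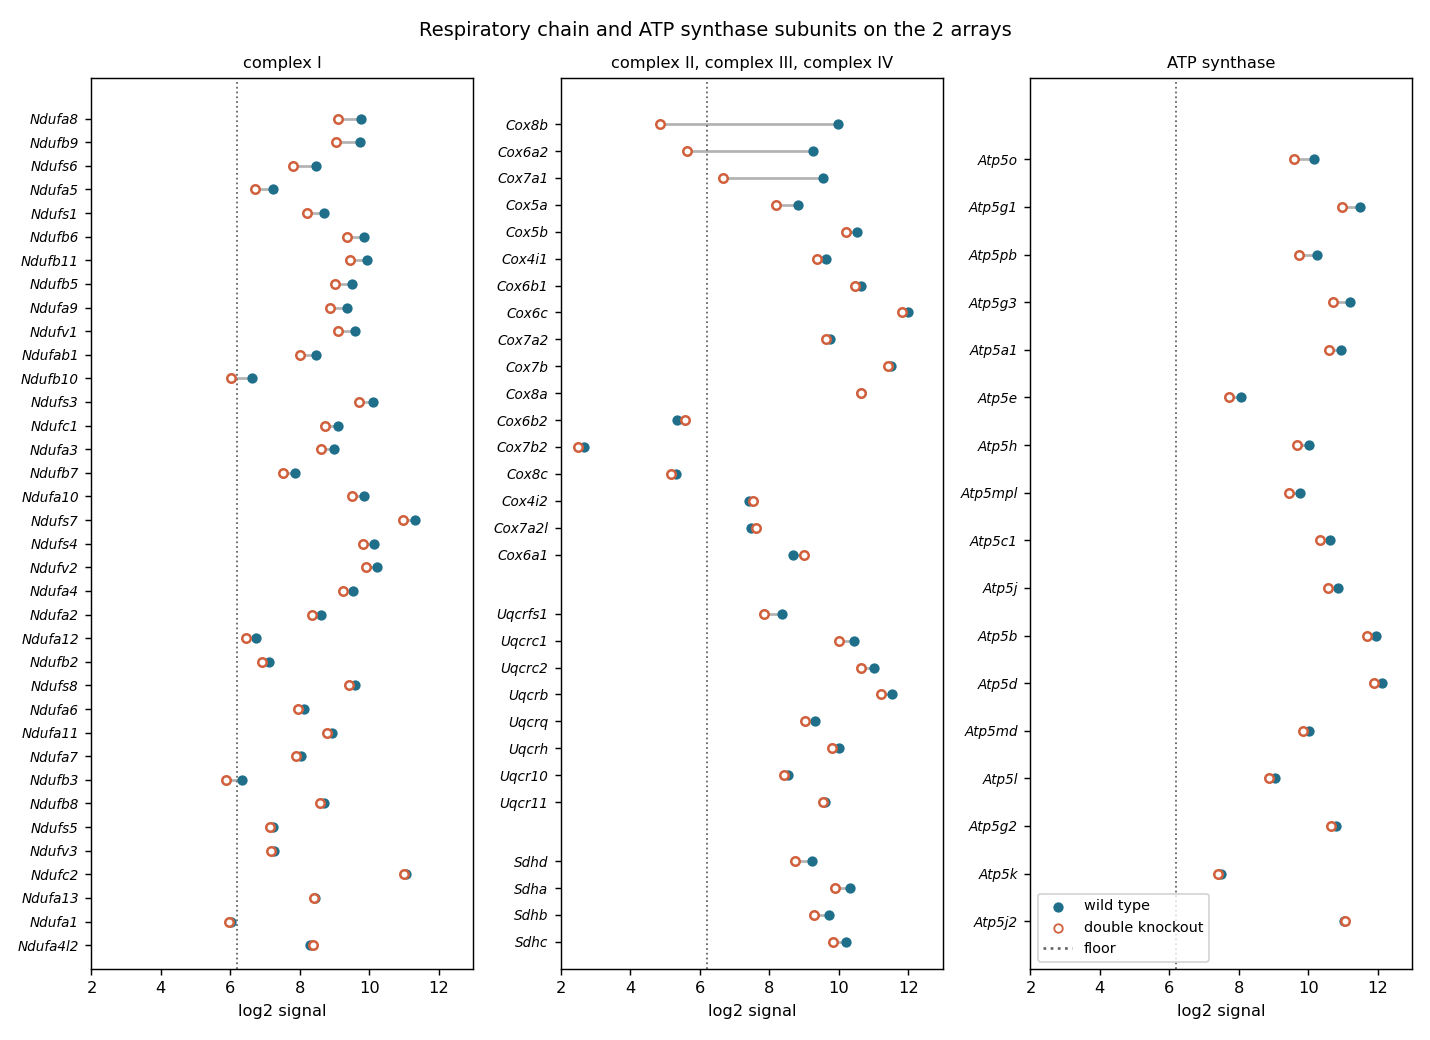
Log2 signal (x axis) of all 82 genes on the wild-type array (filled points) and on the double-knockout array (open points), ordered within each complex by their difference, with the floor as a dotted line. In most rows the open point lies slightly to the left, and Cox8b, Cox6a2 and Cox7a1 have the longest lines.

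**Figure D2:**
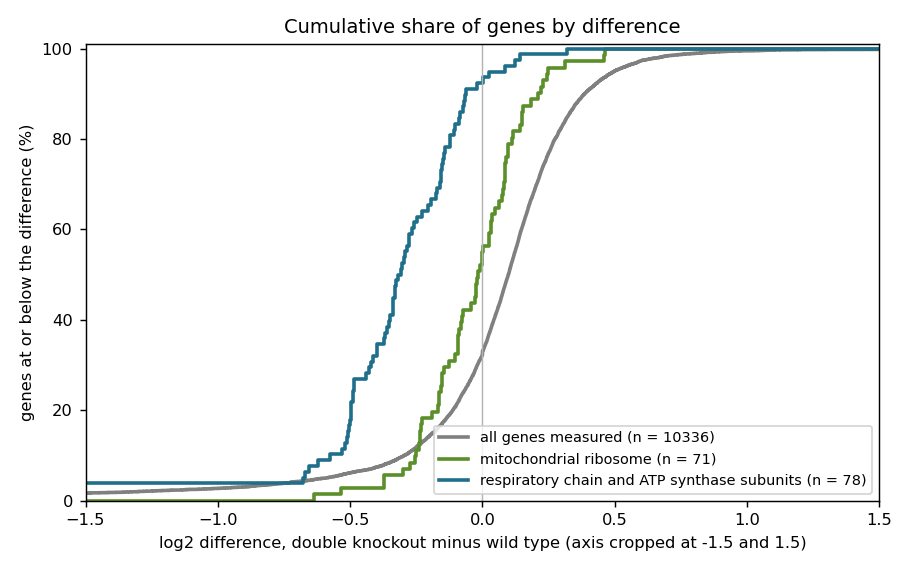
Cumulative percentage of genes (y axis) at or below each log2 difference (x axis, double knockout minus wild type) for the 78 measured members, 71 measured genes of the mitochondrial ribosome and all 10336 measured genes. The members' curve lies to the left of the other curves from a difference of about -0.6 upwards, with medians of -0.31, -0.018 and 0.098.

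The muscle isoforms of complex IV differed most of all members. Cox8b, the muscle form of the smallest subunit VIII, read 9.96 in the wild type and a deposited 4.85 in the double knockout, below the floor, and was at least 13.5-fold lower. Cox6a2, the muscle form of subunit VIa, read 9.26 and a deposited 5.62, also below the floor, and was at least 8.31-fold lower. Cox7a1, the muscle form of subunit VIIa, read 9.54 and 6.66 and was 7.38-fold lower, both readings being above the floor. All 3 were bright in the wild type, and only Cox7a1 stayed over the floor in the double knockout, by a small margin.

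Their ubiquitous paralogs did not share this difference. Cox8a read 10.65 on both arrays, a difference of 0.00. Cox7a2 read 9.75 and 9.62, a difference of -0.12. Cox6a1 read 8.69 and 9.01 and was the highest of the 78 measured members, at 0.32 or 1.25-fold higher, at percentile 84.6 of all measured genes. The sign of Cox8a was negative with the median of all genes set to 0 and after quantile normalisation, whereas Cox6a1 was higher and Cox7a2 lower under both. Set against its paralog on the same 2 arrays, the gap was -3.76 or lower for Cox8b, -3.37 or lower for Cox6a2 and -2.76 for Cox7a1 in log2 units. Each of these gaps is more than 10 times the SD between probe sets of 1 gene.

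**Figure D3:**
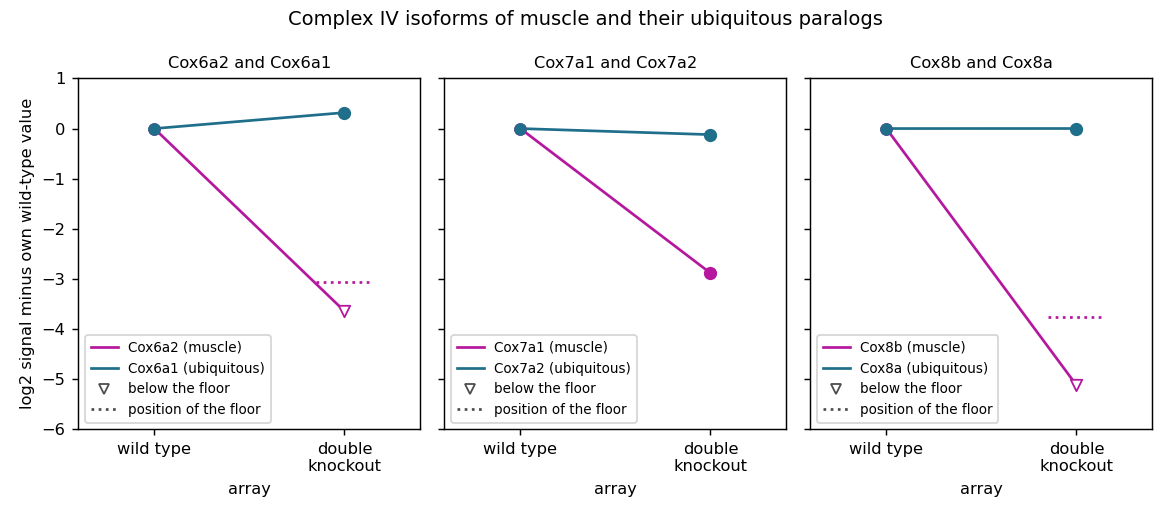
Log2 signal of each gene minus its own wild-type value (y axis) on the wild-type and double-knockout arrays (x axis) for the 3 muscle isoforms and their ubiquitous paralogs. The muscle isoforms lie at -2.88 or lower and the paralogs between -0.12 and 0.32 (Cox8a, at 0.00, is below 0 under both other scalings); open triangles mark deposited values below the floor, whose place is dotted.

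The sequences before the starts of these genes are shown because the paralogs part ways in the data. They are the 250 bases before the start that RefSeq gives on the build GRCm38.p6, read on the gene's own strand, with matches to the E-box CANNTG (bound by MyoD, Myf5 and many other factors) and to the NRF1 site (GCGC, any 2 bases, GCGC) in capitals. Both strands were searched. Cox6a2 had no entry in the table used.
Cox8b (chr7:140900447-140900696, minus strand): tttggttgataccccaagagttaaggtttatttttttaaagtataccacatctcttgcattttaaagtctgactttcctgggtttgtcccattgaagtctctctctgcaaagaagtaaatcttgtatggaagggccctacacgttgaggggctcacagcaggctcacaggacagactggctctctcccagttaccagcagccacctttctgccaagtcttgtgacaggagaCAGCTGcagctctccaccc
Cox8a (chr19:7217617-7217866, minus strand): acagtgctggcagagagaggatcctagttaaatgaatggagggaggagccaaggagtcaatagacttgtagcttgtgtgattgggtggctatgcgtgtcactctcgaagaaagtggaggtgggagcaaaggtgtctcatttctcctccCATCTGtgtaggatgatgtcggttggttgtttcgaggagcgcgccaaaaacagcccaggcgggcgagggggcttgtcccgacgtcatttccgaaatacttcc
Cox7a1 (chr7:30183921-30184170, plus strand): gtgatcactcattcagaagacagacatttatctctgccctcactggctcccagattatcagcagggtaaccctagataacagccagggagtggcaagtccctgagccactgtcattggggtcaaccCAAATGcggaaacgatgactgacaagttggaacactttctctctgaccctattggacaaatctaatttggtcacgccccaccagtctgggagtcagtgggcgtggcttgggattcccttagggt
Cox7a2 (chr9:79759854-79760103, minus strand): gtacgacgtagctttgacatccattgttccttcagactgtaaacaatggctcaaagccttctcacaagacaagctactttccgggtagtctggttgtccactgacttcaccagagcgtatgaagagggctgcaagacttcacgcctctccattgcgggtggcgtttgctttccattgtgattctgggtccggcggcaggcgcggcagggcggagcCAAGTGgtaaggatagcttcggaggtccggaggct
Cox6a1 (chr5:115348959-115349208, minus strand): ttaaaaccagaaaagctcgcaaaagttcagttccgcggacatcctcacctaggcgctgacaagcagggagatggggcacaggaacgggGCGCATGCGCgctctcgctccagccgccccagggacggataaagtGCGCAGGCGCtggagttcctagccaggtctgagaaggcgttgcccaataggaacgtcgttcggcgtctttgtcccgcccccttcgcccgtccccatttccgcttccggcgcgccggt
Each of Cox8b, Cox8a, Cox7a1 and Cox7a2 held 1 E-box, and Cox6a1 held none but 2 NRF1 matches. Whether these matches bear on the differences was not tested. The Cox8b match, 19 to 14 bases before the start, has the form CAGCTG, which 14.7% of the 27025 genes with such a window hold. An E-box of any form was present in 69.3% of all genes and in 41 of the 67 members with a window (61.2%). NRF1, a nuclear regulator of respiratory genes, had a match in 14 of 67 members (20.9%) and in 5.64% of all genes. The 14 ranged from Ndufa8 and Ndufs6, among the lowest of complex I, to Cox6a1, the highest member. The MEF2 site had 0 matches in the members' windows (3.42% of all genes), the ERR element TNAAGGTCA 1 (1.30% of all genes) and the GABP site CCGGAAGT 3 (3.23% of all genes). These are matches of letters, and binding was not measured.

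The other tissue-restricted isoforms were near the all-gene median or below the floor. Cox4i2, a form of subunit IV known from lung and from low oxygen, read 7.41 and 7.53 (0.12), against 9.63 and 9.38 for its ubiquitous paralog Cox4i1 (-0.25). Ndufa4l2, a gene induced by low oxygen, read 8.30 and 8.39 (0.085, and below 0 once the median of all genes is set to 0), and its paralog Ndufa4, first assigned to complex I and since found with complex IV, read 9.53 and 9.23 (-0.30). Cox6b2, Cox7b2 and Cox8c, which are known from testis, were below the floor on both arrays, as was Ndufa1, a small complex I subunit encoded on the X chromosome.

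The remaining complex IV subunits had a median closer to 0 than the other complexes. Cox5a, which binds the matrix side of the core, read 8.83 and 8.20 and was 1.54-fold lower, the only one of them past 1.5-fold. Cox5b followed at -0.33, from 10.52 to 10.20, with a second probe set at -0.38. Cox6b1 (-0.16), Cox6c (-0.15) and Cox7b (-0.075) were closer to 0, and the 2 probe sets of Cox7b lay on either side of it. Cox7a2l, a factor of supercomplex assembly named after its likeness to Cox7a2, was at 0.14, and its second probe set was below 0. The median of complex IV was -0.16 over 14 measured genes (-0.26 with the median of all genes set to 0) and -0.14 over the 10 that remain without the tissue-restricted isoforms.

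Complex I, the entry point for NADH, was lower almost throughout, with 34 of 35 measured genes below 0 and a median of -0.34. Genes were assigned to it by symbol, so Ndufa4 and Ndufa4l2 are counted here. The 34 were below 0 under both other scalings as well. Ndufa8, a subunit of the membrane arm, read 9.77 and 9.09 and was 1.60-fold lower. Ndufb9, in the distal part of that arm, read 9.73 and 9.06 and was 1.59-fold lower, and Ndufs6, which belongs to the module that oxidises NADH, read 8.47 and 7.82 and was 1.58-fold lower. These 3 were the complex I genes past 1.5-fold, and Ndufa5, on the arm that reduces ubiquinone, came next (7.22 and 6.71, -0.51). The other end held Ndufa4l2 and, after it, Ndufa13 (8.45 and 8.42, -0.022). Ndufb10 and Ndufb3 were below the floor in the double knockout alone, at least 1.33-fold and at least 1.09-fold lower.

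Core and accessory subunits of complex I were both lower. The 6 measured core subunits had a median of -0.37 and the 29 others, Ndufa4 and Ndufa4l2 included, one of -0.31. This difference between the groups was not tested. Ndufs1, the large iron-sulfur subunit, was at -0.50 and Ndufv1, which binds NADH, at -0.48, while Ndufs3, Ndufs7, Ndufv2 and Ndufs8 were at -0.40, -0.34, -0.30 and -0.17. By position in the complex, 9 genes of the distal membrane arm had a median of -0.41 or lower. It is a bound because it falls on Ndufb10. The other medians were -0.30 for the NADH-oxidising module (8 genes), -0.37 for the ubiquinone-reducing module (4) and -0.23 for the proximal membrane arm (6). Each of these groups spanned a wide range: the proximal arm held both Ndufa8 (-0.68) and Ndufa13.

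Complex II, which oxidises succinate and also works in the citric acid cycle, had members that lay close together. Sdha, the flavoprotein, read 10.33 and 9.90 (-0.43). Sdhb, the iron-sulfur protein, read 9.72 and 9.30 (-0.42). The membrane anchors Sdhc and Sdhd read 10.22 and 9.82 (-0.40) and 9.24 and 8.75 (-0.49). The 4 differences thus ran from -0.49 to -0.40, and their median of -0.42 was the lowest of the 5 complexes.

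Complex III passes electrons from ubiquinol to cytochrome c, and all 8 of its genes were below 0, with a median of -0.31. The 3 lowest were the Rieske iron-sulfur protein Uqcrfs1 (8.37 and 7.85, -0.51) and the core proteins Uqcrc1 (10.45 and 10.01, -0.44) and Uqcrc2 (11.02 and 10.65, -0.37). The highest were the small subunits Uqcr10 (8.54 and 8.43, -0.10) and Uqcr11 (9.61 and 9.54, -0.064), and a second probe set of Uqcr11 was just above 0. Uqcrb, Uqcrq and Uqcrh lay between, at -0.32, -0.29 and -0.21. Cytochrome c1 (Cyc1), a subunit of the same complex whose symbol the rule does not take in, read 10.46 and 9.97 (-0.49).

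In the ATP synthase, 16 of 17 genes were below 0 (17 under both other scalings), and the median was -0.28. Atp5o, which ties the catalytic head to the peripheral stalk, read 10.16 and 9.58 (-0.58), the lowest of the 17. Atp5g1 read 11.49 and 10.96 (-0.53), and Atp5pb, the stalk's subunit b, 10.25 and 9.73 (-0.52). The highest were the membrane subunits Atp5k (7.48 and 7.41, -0.068) and Atp5j2 (11.03 and 11.05, 0.025, the 1 member above 0). The 5 genes of the catalytic head (Atp5a1, Atp5b, Atp5c1, Atp5d and Atp5e) ran from -0.35 to -0.23, the 4 of the peripheral stalk from -0.58 to -0.28 and the 5 membrane subunits from -0.33 to 0.025.

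The c ring of the ATP synthase is made from 3 genes that encode the same mature protein, and they differed among themselves. Atp5g1 (-0.53, with a second probe set at -0.48) and Atp5g3 (11.21 and 10.71, -0.50) were near the low end of the complex. Atp5g2 read 10.80 and 10.66 (-0.15), and its 2 other probe sets gave -0.13 and -0.17. The distance of Atp5g2 from both paralogs was larger than the disagreement among the probe sets of Atp5g1 or of Atp5g2. Over genes in general probe sets disagreed more (SD of 0.225), and Atp5g3 has only 1 probe set. The distance was not tested.

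**Figure D4:**
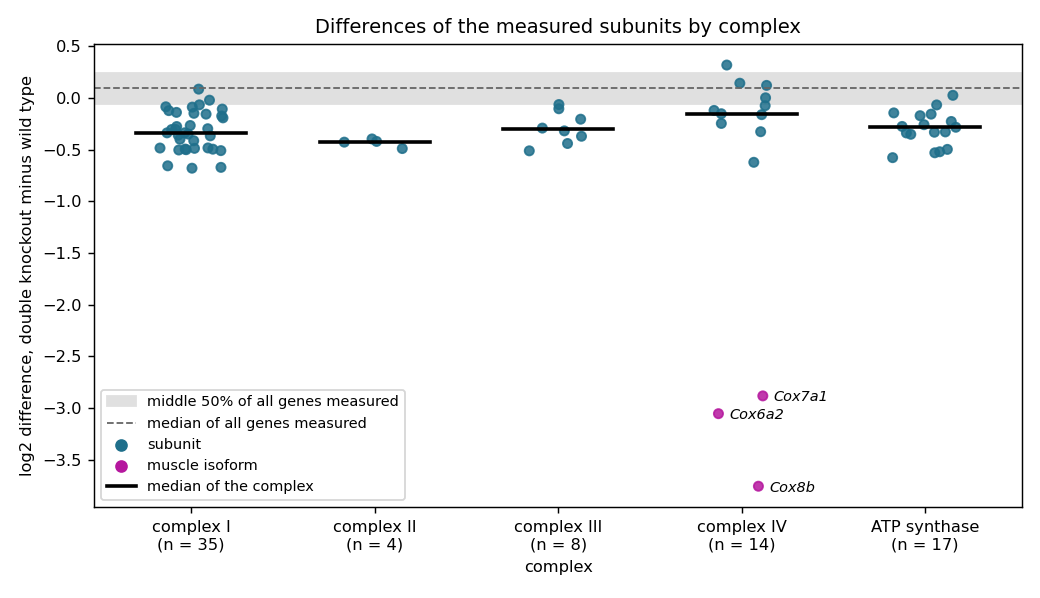
Log2 difference (y axis, double knockout minus wild type) of each measured member by complex (x axis), with the median of each complex as a bar, and the median and middle 50% of all measured genes behind. The medians run from -0.42 (complex II) to -0.16 (complex IV), all below the middle 50% of all genes (-0.062 to 0.24).

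Probe sets of 1 gene gave similar differences among the members. Of the 17 members with more than 1 probe set that both arrays read above the floor, 14 had all of them in one direction, and the 3 others were Cox7a2l, Cox7b and Uqcr11. The median gap between the 2 brightest was 0.051 and the largest 0.21, below the SD of 0.225 over genes in general. Several respiratory genes have processed pseudogenes whose sequence their probe sets may share, so probe sets of 1 gene are not independent readings.

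Other mitochondrial genes were examined to see how far the difference extended. The 2 mitochondrially encoded subunits with probe sets of their own were closer to 0 than the members' median of -0.31. Subunit 2 of complex IV (COX2) read 12.02 and 12.00 (-0.021) and subunit 3 of complex I (ND3) 11.19 and 11.03 (-0.16). ND3 was no closer to 0 than the median of complex IV (-0.16), and both genes were below the all-gene median of 0.098. Their further probe sets were at -0.060 and -0.059. Of the electron carriers and ubiquinone synthesis genes, 10 of 11 measured were below 0 (32.2% of all measured genes were), with a median of -0.30. The lowest were Coq5 (8.30 and 7.53, -0.77) and Coq9 (9.18 and 8.51, -0.67), both of ubiquinone synthesis, and the highest Coq6 (-0.16) and Coq2 (0.066).

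The list of citric acid cycle and pyruvate dehydrogenase genes had a lower median than any of the 5 complexes. Of its 15 measured genes, 14 were below 0, where 32.2% of all measured genes were, and the median was -0.53. The pyruvate dehydrogenase genes Dlat (-0.715), Pdha1 (-0.551) and Pdhb (-0.543 or lower), which are not enzymes of the cycle itself, lay below that median. Sdha to Sdhd, counted in complex II, were not in the list. Its rank against the complexes therefore depends on which genes are listed. Idh3a, the catalytic subunit of the cycle's NAD-linked isocitrate dehydrogenase, read 9.96 and 8.74 and was 2.34-fold lower. Sucla2, which makes succinyl-CoA synthetase form ATP, read 9.14 and 8.23 (-0.91). The highest were Mdh2 (-0.19) and Suclg2, the counterpart of Sucla2 that forms GTP (7.67 and 8.07, 0.40). In fatty acid oxidation 14 of 15 measured genes were below 0 with a median of -0.23, led by the acyl-CoA dehydrogenases Acadl (9.26 and 8.13, 2.20-fold lower) and Acadm (9.31 and 8.55, -0.76), with Echs1 (-0.030) and the carnitine palmitoyltransferase Cpt1a (8.25 and 8.61, 0.36) highest.

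Carriers and energy transfer proteins of the mitochondrial membranes were split. Of 14 measured, 9 were below 0 (32.2% of all measured genes were) and 5 above it, with a median of -0.44. At 1.2-fold, 8 were lower (11.3% of all genes) and 4 higher (21.3% of all genes). The muscle mitochondrial creatine kinase Ckmt2 read 8.53 and a deposited 4.05 (-2.32 or lower), and the aspartate-glutamate carrier Slc25a12 read 10.36 and 8.84 and was 2.85-fold lower. Slc25a4, the ADP/ATP carrier of muscle and heart, read 11.26 and 10.31 (-0.94), whereas the carrier Slc25a5 of most other tissues was at 0.12 and Slc25a31 below the floor on both arrays. The highest were Slc25a13 (0.49) and the ubiquitous mitochondrial creatine kinase Ckmt1 (0.58).

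Genes that build mitochondria differed less by their medians. The 71 measured genes of the mitochondrial ribosome had a median of -0.018, from Mrpl15 (-0.64) and Mrpl42 (-0.54) to Mrpl34 and Mrpl52 (both 0.46). Below 0 were 37 of them, where 32.2% of all measured genes were. The 20 genes of protein import had a median of -0.072, from Timm23 (-0.39) and Timm10 (-0.38) to Timm8b (0.071) and Tomm22 (0.17). The 32 measured assembly factors of the respiratory complexes had a median of -0.15 with 24 below 0, from Cox14 (-0.38) and Timmdc1 (-0.32) to Cox20 (0.21) and Tmem126b (0.23). At the added threshold of 1.2-fold, 11.3% of all measured genes were lower. Past it, 6 of the 71 ribosome genes and 2 of the 20 import genes were lower, which is near that background at this threshold. The counts were 6 of the 32 assembly factors and 47 of the 78 subunits. The all-gene median of 0.098 has 5168 of the 10336 measured genes below it. Below that median were 55 of the 71 ribosome genes, 19 of the 20 import genes and 25 of the 32 assembly factors. On this measure the 3 lists were shifted lower too, with medians less low than that of the subunits. Of 13 measured regulators, 6 were below 0, 10 were below the all-gene median, and the median was 0.002. At 1.2-fold, 4 were lower (11.3% of all genes) and 0 higher (21.3% of all genes). The coactivators Ppargc1b and Ppargc1a were at -0.56 and -0.31, Ppara at -0.52 or lower and Esrra at -0.30. The highest were Ppard at 0.15 and Nrf1 at 0.23. The regulators Tfam, Twnk, Esrrb and Esrrg were below the floor on both arrays.

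**Figure D5:**
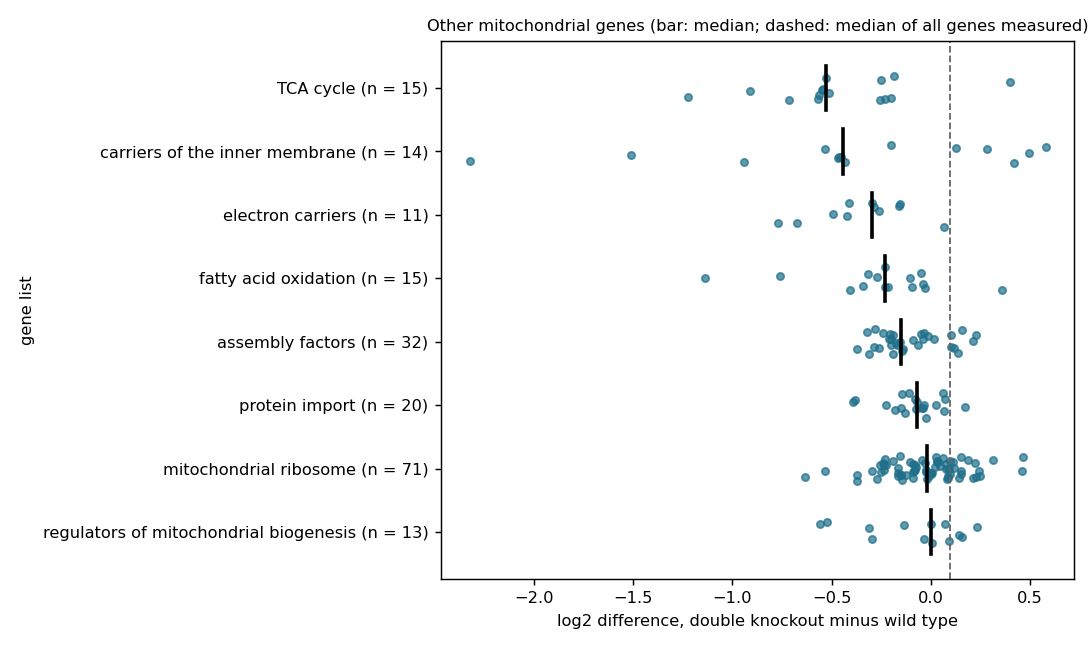
Log2 difference (x axis, double knockout minus wild type) of each measured gene in 8 other mitochondrial gene lists (y axis), with the median of each list as a bar and the median of all measured genes dashed. The medians run from -0.53 (citric acid cycle, pyruvate dehydrogenase included) to 0.002 (regulators).

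Markers of other tissues that are rich in mitochondria or share these isoforms were read on the same arrays. Cox7a1 and Cox8b are also made in brown fat. The brown fat markers Ucp1, Cidea, Elovl3 and Prdm16 were below the floor on both arrays, with Ucp1 at a deposited 4.16 and 4.08. The 2 measured ones, Ppargc1a (7.54 and 7.23, -0.31) and Dio2 (6.49 and 6.41, -0.079), were below 0. The deposited linear signals of the 6 brown fat markers added up to 417.3 (wild type) and 393.7 (double knockout). No floor was applied to them or in the sums that follow. Of the 6 adipocyte markers with a probe set, Adipoq, Plin1, Lep and Cidec were below the floor on both, and the sums were 514.8 and 432.4. Of the 2 measured, Fabp4 read 8.37 and 7.65 and was 1.65-fold lower, and Pparg read 6.69 and 7.01 (0.32). Cox6a2 and its partners are also made in heart. Of the 6 heart markers, Myh6, Nppa, Nppb, Tnni3 and Myl7 were below the floor on both arrays and Myl4, which fetal skeletal muscle makes too, read 11.54 and a deposited 6.08, with sums of 3117 and 210.1, the latter all from values below the floor. Osteoclasts and salivary gland cells have many mitochondria, and the measured markers of both were higher in the double knockout. All 7 measured osteoclast markers were higher, between 0.43 and 1.08, with the sum over 8 markers going from 8305 to 13268. The marker Calcr was below the floor on both arrays, at a deposited 5.89 and 5.41. All 7 salivary gland markers were higher, between 1.70 and 4.12, with sums of 1927 and 15938. Of all 10336 measured genes, 6919 were higher. The part of these tissues in the differences of the respiratory genes was not tested.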

How the data were processed

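Biotin-labelled cRNA from 6 µg total RNA of each of the 2 fetal mandible samples was placed on Affymetrix arrays (protocols in the labels). The deposited table holds log2 values for 35557 probe sets on both arrays. MAS5 is named in the submitters' processing notes; its version, the logarithm step and the normalization between arrays are not given in the sources used here, and the base 2 was read from the range of the values. The array medians were 5.48 and 5.45, and the trimmed means of the linear signal had a ratio of 1.02, so values were compared as deposited. GEO's platform annotation named 1 gene for 21789 probe sets, several for 1621 and none for 12147. All 82 members were found by Entrez identifier in RefSeq's GRCm38.p6 table. Precision is limited by the number of arrays.

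The members and gene lists were chosen with earlier results of these data known. The genes named are the tissue-restricted isoforms with their paralogs, the c ring genes, the carriers of ADP and ATP, the 3 lowest and 2 highest of each complex, members at least 1.5-fold apart, and the 2 lowest and 2 highest of each other list; others were chosen after their values were seen. Calculations used Python 3.11.15 with pandas 2.3.3 and numpy 2.4.6 and were tested on simulated data. Alternatives were other scalings, floors, thresholds and the median over a gene's probe sets.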

Additional observations from a re-analysis of the deposited data

How the results depend on the processing

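Of 78 recomputed medians, counts and isoform gaps, 68 stayed within 1 SD of a single probe set's difference (0.159) or, for counts, within 1.5 times. That SD is a loose measure for a median over many genes, and setting the median of all genes to 0 moves each median by 0.098, which cannot exceed it. Under that setting the medians were -0.43 for complex I, -0.52 for complex II, -0.40 for complex III, -0.26 for complex IV and -0.38 for the ATP synthase, and the largest relative move was that of complex IV, from -0.16. The 10 others concern the floor and the fold threshold. Under a 25th percentile floor, and also with no floor, the gap of Cox6a2 to Cox6a1 was -3.96 and that of Cox8b to Cox8a -5.12, since these isoforms are then read below the original floor. Under a 75th percentile floor, the gaps were -1.84 for Cox6a2, -1.69 for Cox7a1 and -2.23 for Cox8b. The count of lower members was 7 at 1.5-fold and 47 at 1.2-fold, where 1 member was higher, and 2 of the 3 muscle isoforms had only a bound. Of 458 recomputed differences of single members, 446 stayed within that SD and 12 moved. A change of sign was counted only for the 3 members at least 2-fold apart. None of these changed sign, which says little, as their differences are large. Among the others, Atp5j2, Cox8a, Ndufa4l2 and Cox7b changed sign under at least 1 setting. The median over all members ran from -0.41 with the median of all genes set to 0 to -0.30 with no floor. No paired analysis was possible because each genotype has 1 array, and for the same reason no replicate could be left out. Differences near 0.2 cannot be told from the gap between probe sets.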

Other observations

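Probe sets that name several genes, one of them a respiratory subunit, entered no comparison. The 3 that name Cox7c, a ubiquitous complex IV subunit, together with the predicted gene Gm12338 read 11.86, 12.13 and 11.99 in the wild type and 11.54, 11.81 and 11.66 in the double knockout, and their differences of -0.33, -0.33 and -0.33 were close to that of Cox5b. The 2 that name Ndufb4 and Ndufb4b differed by -0.030 and -0.023, and the 1 that names Ndufs5 and its pseudogene by -0.20, where the probe set of Ndufs5 alone gave -0.089.

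Outside complex IV, 4 further pairs of mitochondrial proteins with related roles were set side by side after their values were seen. The difference of Ckmt2 minus that of Ckmt1 was -2.90 or lower in log2 units, and the gap was -2.01 for Slc25a12 against Slc25a13, -1.31 for Sucla2 against Suclg2 and -1.07 for Slc25a4 against Slc25a5. In each of the 4 pairs the second gene was higher in the double knockout than in the wild type and above the all-gene median. As the pairs were picked for their values, they carry no test.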
